A study of Homo sapiens with 3 samples.

Results

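ETS1 occupancy was examined at 10 genes of the VEGF pathway and of the hypoxia response in SCC25 cells, a line established from a tongue carcinoma of squamous type. The genes were 4 secreted ligands (VEGFA, VEGFB, VEGFC and ANGPTL4), 4 receptors (FLT1, KDR, NRP1 and NRP2) and the alpha subunits HIF1A and EPAS1 of the hypoxia-inducible factors. They were taken by name from the 19855 protein-coding genes of GENCODE release 44 on GRCh37, the nuclear sequence of hg19. No value of the data enters that rule, but the genes were chosen with earlier results of these data known. A peak was assigned to a gene if its midpoint lay in the gene body or within 100 kb of it, which gave 65 of the 26970 ETS1 peaks of the series. ChIP-Seq had been carried out on 3 samples, with C20 as the ETS1 antibody in 2 of them and 501A in 1. The labels name no treatment, no oxygen level and no change to the ETS1 gene, and SCC25 is a single line of mesenchymal type. Because the 3 samples were pooled into 1 list of peak positions, there was no value per sample, no read depth and no spread between replicates. Each peak is present or absent, and the intervals below (95%, Poisson for rates and Wilson for shares) cover the counting of peaks alone. For the same reason no test was run between genes or between roles, and the 10 genes are not replicates of one another.

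Tumor cells under low oxygen stabilise HIF1A and EPAS1, which pair with ARNT and bind elements with the core ACGTG to raise the transcription of VEGFA, ANGPTL4 and many metabolic genes. The VEGF ligands are secreted and act mainly on endothelial cells, where FLT1 and KDR are the signaling tyrosine kinases for VEGFA. NRP1 and NRP2 are co-receptors with short cytoplasmic tails that endothelial cells share with neurons and with many carcinomas. VEGFC is known as the lymphangiogenic ligand. ETS proteins bind DNA around the core GGAA, and several of them take part in the transcription of endothelial receptor genes. Expression of the 10 genes in SCC25 was not analysed here, so that a peak marks occupancy near a gene and says nothing of its transcript level.

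All 10 genes had at least 1 peak in their window, as did 88.2% of all protein-coding genes, so that presence of a peak at this distance did not set the genes apart. A peak lay in the body of 8 of the 10 genes, against 54.1% of all genes. The exceptions were FLT1 and KDR, which had no peak in the body and none at a promoter. The share with a body peak was not matched for gene length. All coding genes had a median body of 27.6 kb, and the 10 genes ranged from 4.68 kb (VEGFB) to 195 kb (FLT1). Of the 3889 coding genes at least as long as EPAS1 (93.0 kb), 31.7% had no peak in the body. A peak midpoint lay within 500 bp of an annotated transcription start site (TSS) of the gene for VEGFA, VEGFB, VEGFC, NRP2, HIF1A and EPAS1, which is 6 of 10 against 53.8% of all genes. A peak covered the TSS of the canonical transcript in 6 of 10 genes against 52.3% of all genes, with NRP1 in the place of NRP2. The shares for promoters are therefore close to the background, whereas the genes differed widely among themselves in how far the nearest peak was from the TSS. It was 154 bp for HIF1A, 286 bp for VEGFB, 321 bp for VEGFC, 821 bp for EPAS1, 1089 bp for NRP1, 1350 bp for VEGFA, 2004 bp for ANGPTL4 and 2293 bp for NRP2. FLT1 and KDR stood apart at 36372 bp and 50601 bp, and the median of all protein-coding genes was 659 bp. A nearer peak than that of FLT1 was found for 74.2% of all genes, and a nearer one than that of KDR for 77.9%.

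**Figure D1:**
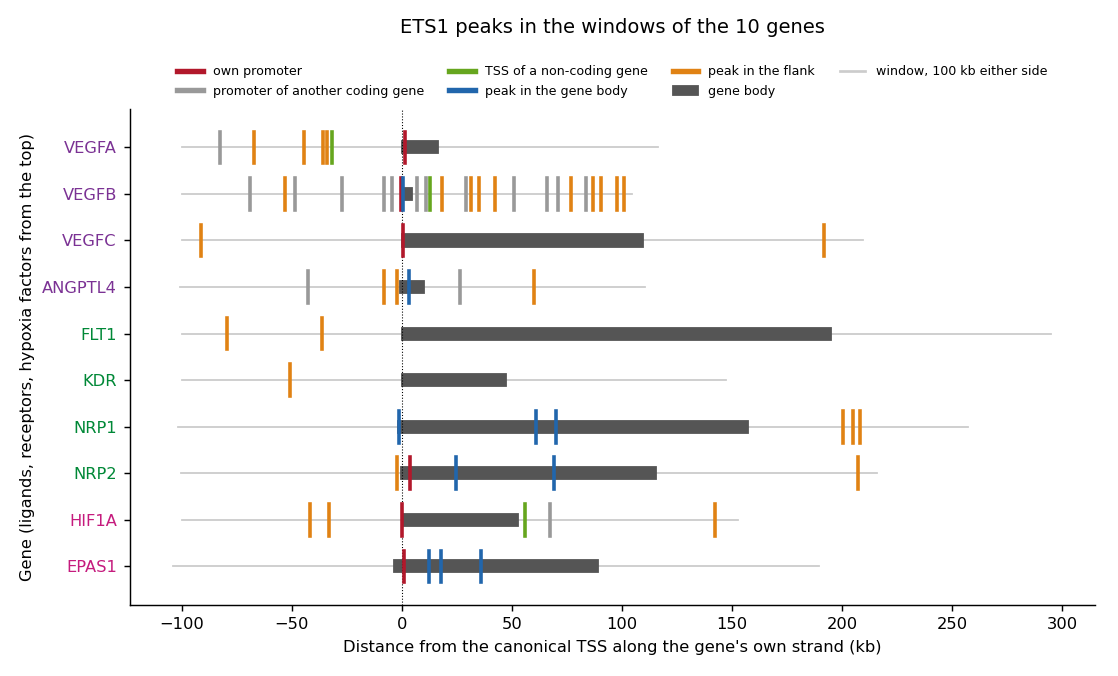
Each row is 1 gene, drawn by distance in kb from its canonical TSS along its own strand, with the gene body as a dark bar, the window of 100 kb either side as a thin line, and each ETS1 peak as an upright mark at its midpoint, coloured by class. VEGFB carries the most marks (25), while FLT1 and KDR have 2 and 1, all upstream of the gene and none in the body.

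Sequences from within these peaks are given as a description. In each stretch below, the core GGAA, or TTCC where it lies on the other strand, is in capitals, the bases are from GRCh37, and the strand is that of the gene. The stretches are the 120 bp with most GGAA within a peak, outside annotated untranslated regions, and 120 bp was chosen for length only. They are thus rich in GGAA by choice, and the list does not say which bases of a peak were bound. First come the distal peaks of the receptor kinases, which were the only peaks in their windows.
KDR, peak 50601 bp upstream (chr4:56042257-56042376, minus strand): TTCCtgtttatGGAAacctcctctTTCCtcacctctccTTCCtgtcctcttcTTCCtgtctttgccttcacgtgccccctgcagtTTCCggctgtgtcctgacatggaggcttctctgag
FLT1, peak 36372 bp upstream (chr13:29105444-29105563, minus strand): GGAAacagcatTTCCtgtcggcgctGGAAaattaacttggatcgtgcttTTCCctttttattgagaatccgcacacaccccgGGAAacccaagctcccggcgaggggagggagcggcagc
FLT1, peak 79610 bp upstream (chr13:29148786-29148905, minus strand): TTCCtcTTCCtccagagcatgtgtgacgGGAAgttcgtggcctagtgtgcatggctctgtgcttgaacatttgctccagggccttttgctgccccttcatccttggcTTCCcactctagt
The KDR stretch held 6 GGAA cores, of which 3 were in the ETS core AGGAAA or AGGAAG, and a palindromic CACGTG between them, which counts as 2 ACGTG sites since both strands are read. Fewer GGAA in their densest 120 bp were found for 88.1% of all peaks. The stretches of FLT1 held 5 and 4 GGAA, where the median over all peaks was 4.

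The peaks around ANGPTL4, HIF1A, EPAS1, NRP2 and the distal peak of VEGFA are shown for comparison, because they were nearer to these genes than to any other coding gene and over 500 bp from any of their TSSs.
ANGPTL4, peak 8332 bp upstream (chr19:8420525-8420644, plus strand): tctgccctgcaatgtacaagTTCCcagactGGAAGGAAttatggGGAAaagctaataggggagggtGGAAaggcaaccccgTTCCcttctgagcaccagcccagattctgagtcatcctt
ANGPTL4, peak 2004 bp upstream (chr19:8427139-8427258, plus strand): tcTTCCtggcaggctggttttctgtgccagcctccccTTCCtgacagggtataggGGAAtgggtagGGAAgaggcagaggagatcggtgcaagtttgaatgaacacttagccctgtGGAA
ANGPTL4, peak in intron 3 (chr19:8432370-8432489, plus strand): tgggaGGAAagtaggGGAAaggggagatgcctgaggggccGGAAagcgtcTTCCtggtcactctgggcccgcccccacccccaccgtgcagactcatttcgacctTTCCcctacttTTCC
VEGFA, peak 35920 bp upstream (chr6:43701832-43701951, plus strand): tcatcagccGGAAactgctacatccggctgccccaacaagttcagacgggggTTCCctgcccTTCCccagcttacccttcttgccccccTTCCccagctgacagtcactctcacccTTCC
HIF1A, peak 41807 bp upstream (chr14:62120362-62120481, plus strand): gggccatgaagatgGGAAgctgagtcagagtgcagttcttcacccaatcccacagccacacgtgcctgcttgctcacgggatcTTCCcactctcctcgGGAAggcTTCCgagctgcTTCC
EPAS1, peak in intron 1 (chr2:46536849-46536968, plus strand): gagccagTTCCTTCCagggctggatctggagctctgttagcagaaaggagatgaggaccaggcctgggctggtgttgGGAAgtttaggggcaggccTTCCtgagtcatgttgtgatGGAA
NRP2, peak in intron 11 (chr2:206616409-206616528, plus strand): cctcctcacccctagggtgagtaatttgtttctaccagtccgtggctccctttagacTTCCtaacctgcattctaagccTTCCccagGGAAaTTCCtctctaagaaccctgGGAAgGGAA
The stretches of ANGPTL4 8332 bp upstream, HIF1A and EPAS1 each also held 1 site of the AP-1 motif TGANTCA (searched as TGACTCA and TGAGTCA on both strands), which the other stretches of this kind shown here lacked. The HIF1A stretch, 41807 bp before the gene, held a CACGTG as well.

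Promoters are shown for 2 genes whose TSS lay under a peak and for 2 without one there, as the 120 bp that end at the base before the canonical TSS.
VEGFC, promoter under a peak (chr4:177714077-177714196, minus strand): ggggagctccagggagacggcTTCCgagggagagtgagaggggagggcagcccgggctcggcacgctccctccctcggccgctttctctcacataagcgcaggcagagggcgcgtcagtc
HIF1A, promoter under a peak (chr14:62162111-62162230, plus strand): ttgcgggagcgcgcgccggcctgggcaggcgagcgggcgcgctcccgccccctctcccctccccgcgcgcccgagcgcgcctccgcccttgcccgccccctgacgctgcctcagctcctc
ANGPTL4, promoter without a peak (chr19:8428919-8429038, plus strand): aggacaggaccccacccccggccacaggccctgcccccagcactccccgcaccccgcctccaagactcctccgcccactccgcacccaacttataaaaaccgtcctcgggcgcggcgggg
KDR, promoter without a peak (chr4:55991763-55991882, minus strand): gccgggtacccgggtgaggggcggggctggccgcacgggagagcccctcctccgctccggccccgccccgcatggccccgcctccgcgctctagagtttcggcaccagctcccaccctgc
The 4 promoters had no ETS core, and VEGFC alone had a GGAA. Over all 19855 canonical promoters of this length, 70.8% held a GGAA, and 4 of the 10 genes did. The longer ETS core was held by 22.7% of all promoters and by those of FLT1 and NRP1. FLT1, with no peak within 36372 bp of the TSS, thus had the letters and not the occupancy, whereas NRP1 had both. HIF1A had the occupancy without the letters in this stretch, though its promoter peak as a whole held 16 GGAA and 6 ETS cores. A match is a description of the sequence, and a missing match says only that the letters are not in that window.

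Among the ligands, VEGFA (chr6:43737921-43754224, plus strand) encodes the principal angiogenic factor and had 7 peaks in its window, where the median gene had 4 (quartiles 2 and 8). Of these peaks 6 were upstream, 1 was in the body and none was downstream. The peak in the body ran over chr6:43736909-43741688, from before the gene into intron 1. At 4780 bp it was wider than 99.7% of all peaks, and it covered 12 of the 15 annotated TSSs of the gene. Its midpoint lay 314 bp from the nearest of these and 1350 bp into the canonical transcript. The 600 bp around the midpoint held 2 GGAA and no ETS core, where the median peak held 7 GGAA. The peak as a whole held 69 GGAA and 18 ETS cores, so that for a peak of this width the central window leaves out most of the sites. It also held 5 ACGTG, 3 of them before the canonical TSS, where the hypoxia response element of VEGFA is known to lie.

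The upstream peaks of VEGFA fell into a group of 3 close ones, at 31903, 34060 and 35920 bp, and 3 more at 44636, 67341 and 82594 bp. The farthest was at the promoter of MRPS18A, a mitochondrial ribosome gene, and that one and the next 2 were nearer to MRPS18A than to VEGFA. The 3 close ones were 2028, 675 and 1228 bp wide and lay between MRPS18A and VEGFA, with no other coding TSS in the window. The one at 31903 bp, 474 bp from the TSS of a non-coding gene, had no GGAA at all in its central 600 bp, which holds for 76 of the 26961 nuclear peaks (0.282%), though 17 lay elsewhere in the same peak. VEGFA thus had 4 peaks nearest to itself, 1 over its promoter and 3 in this upstream group. Nearest here and below is by the canonical TSSs of coding genes, unless stated otherwise, so that a non-coding TSS can be nearer.

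VEGFB (chr11:64002056-64006736, plus strand), which binds FLT1 and not KDR, had 25 peaks in its window, and 99.8% of all genes had fewer. The VEGFB gene is 4.68 kb long and lies in a dense stretch, with the TSSs of 17 other coding genes in the window, where the median gene had 3. Only 2 of the 25 peaks were nearest to VEGFB itself. One, of 614 bp at chr11:64001464-64002077, covered the TSS with its midpoint 286 bp before it, and 6 bp from the TSS of a non-coding gene. The other, of 848 bp, lay in intron 1. These were the narrowest peaks of the window but for one of 378 bp, and their 600 bp windows held 5 and 3 GGAA. A further 12 peaks were within 500 bp of the TSS of another coding gene, among them those of GPR137 and of ESRRA, a nuclear receptor, the latter 4170 bp wide. The widest peak of the window, of 4973 bp, lay 34965 bp downstream and had its midpoint 513 bp from a TSS of GPR137. ANGPTL4 had 8 other coding TSSs in its window, HIF1A 2 and NRP1 none, with 6 peaks each. Their windows differed in length (211, 253 and 359 kb), and per 100 kb they had 2.84, 2.37 and 1.67 peaks. VEGFA and EPAS1, with 1 other coding TSS each, had 3.24 and 1.37 per 100 kb. A relation between these TSSs and the peaks was not tested.

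VEGFC (chr4:177604689-177714076, minus strand) lay at the other end of the ligands, with 3 peaks in a window of 309 kb that held no other coding TSS. One peak, chr4:177712853-177714658, covered the TSS with its midpoint in exon 1, was 1806 bp wide and had a GC content of 77.5% in its central 600 bp. The others were narrow, at 335 and 371 bp, one 91425 bp before the TSS and one beyond the end of the gene at 191590 bp. The long body of VEGFC held no peak away from the promoter. All 3 were nearest to VEGFC, because its coding neighbours were far away.

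ANGPTL4 (chr19:8428173-8439254, plus strand), a secreted inhibitor of lipoprotein lipase that is induced by hypoxia, had 6 peaks and none at an own promoter. A run of 3 peaks surrounded the TSS without covering it. They lay 8332 bp and 2004 bp upstream and in intron 3, 3283 bp after the canonical TSS, and were 365, 595 and 773 bp wide, all below the median of 969 bp. Their central 600 bp held 11, 11 and 14 GGAA, where the median peak held 7 and the upper decile began at 11, and 4, 5 and 3 ETS cores. Within the peaks themselves there were 9, 11 and 17 GGAA, and 3, 5 and 3 ETS cores. These peaks were nearest to ANGPTL4. The remaining 3 were nearest to other genes, 1 each at the promoters of RPS28 and RAB11B and 1 near MARCHF2.

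**Figure D2:**
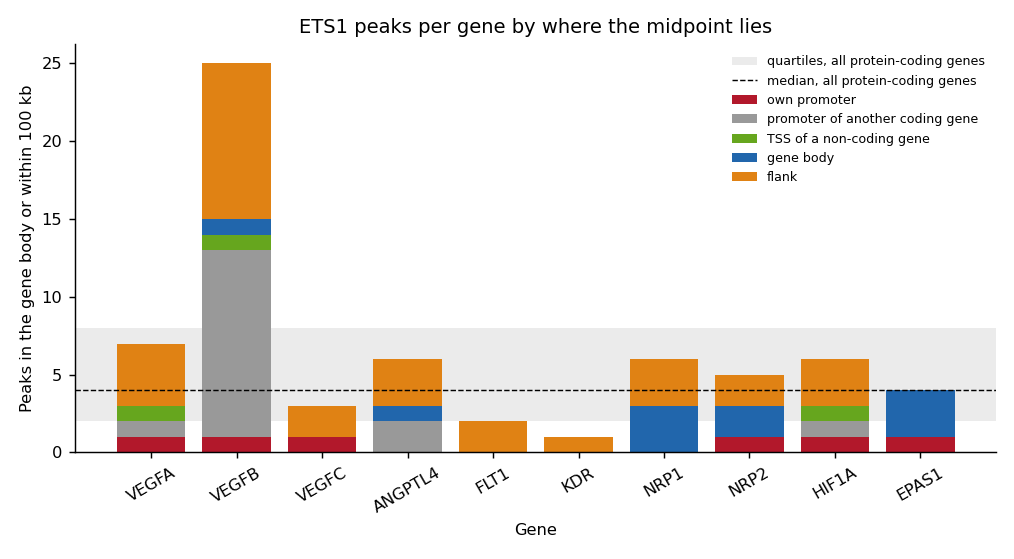
Bars give the number of ETS1 peaks in the gene body or within 100 kb for each gene, stacked by where the midpoint lies; the shaded band and the dashed line are the quartiles (2 and 8) and the median (4) of all protein-coding genes. VEGFB exceeds the band with 25 peaks, of which 12 are at promoters of other coding genes, and KDR falls below it with 1.

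Of the receptors, the kinases had the fewest peaks and the neuropilins had peaks in the gene. FLT1 (chr13:28874483-29069282, minus strand) had 2 peaks in a window of 395 kb, of 967 bp at chr13:29105154-29106120 and of 318 bp at chr13:29148717-29149034, both upstream of the gene and nearest to it. The body of FLT1 spans 195 kb, and no peak midpoint fell in it. Of the 1553 coding genes at least as long, 34.8% had no peak in the body either, so that this alone is not rare. The narrower FLT1 peak lay in 600 bp with 15 GGAA and 5 ETS cores, and 98.6% of peaks had fewer GGAA. Within the 318 bp of the peak itself there were 6 GGAA and 2 ETS cores.

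KDR (chr4:55944648-55991762, minus strand) had 1 peak, of 609 bp, at chr4:56042059-56042667. This peak was 50601 bp from the TSS of KDR and 170017 bp from that of the next coding gene, SRD5A3. The 600 bp around its midpoint held 15 GGAA and 5 ETS cores, the same counts as for the narrower FLT1 peak. Over the 609 bp of the KDR peak itself the counts were also 15 and 5. The 318 bp of the FLT1 peak held only 6 and 2, the rest being in its flanks. Only 11.8% of coding genes had fewer window peaks than KDR, which are the genes with none. Of the 7047 genes at least as long as KDR, 32.8% lacked a peak in the body.

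NRP1 (chr10:33466420-33625190, minus strand) had 6 peaks, 3 in the body and 3 downstream. Its widest, 3420 bp at chr10:33622975-33626394, covered the canonical TSS and 8 of its 13 annotated TSSs in all. The midpoint lay 506 bp from the nearest TSS, just outside the 500 bp that defined a promoter peak, while that of EPAS1 at 464 bp was just inside. The whole peak held 53 GGAA and 11 ETS cores. The other NRP1 peaks in the body were narrow, 650 bp in intron 2 and 315 bp in intron 3. The 3 downstream peaks lay 200290 to 207990 bp from the canonical TSS. By canonical TSSs of coding genes they were nearest to ITGB1, at 168447 bp or more. Over all annotated TSSs of coding genes they were nearest to NRP1, at 51278 to 58978 bp. The TSS of the non-coding gene IATPR was nearer still, at 9888 to 17588 bp.

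NRP2 (chr2:206546714-206662857, plus strand) had 5 peaks, of which 4 were nearest to it by canonical TSS. Its widest, 3380 bp at chr2:206549042-206552421, had its midpoint in intron 1, 3506 bp after the canonical TSS, and covered 1 of the 15 TSSs of the gene. A narrow peak of 414 bp lay 2293 bp before the canonical TSS, so that NRP2 had occupancy on both sides of that TSS and none over it. Further peaks of 816 and 395 bp lay in introns 2 and 11. The one in intron 11 had 18 GGAA in the 600 bp around its midpoint, the most of the 65 peaks for this window, and 99.8% of all peaks had fewer. Within the 395 bp of that peak itself there were 13 GGAA and 3 ETS cores. NRP1 and NRP2 thus each had a peak over 3 kb wide that covered an own TSS, and further intronic peaks under 1 kb.

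The hypoxia factors were both occupied at the promoter. HIF1A (chr14:62162231-62214977, plus strand) had 6 peaks, and that at chr14:62161569-62163201, of 1633 bp, covered 3 of its TSSs with its midpoint in exon 1, 110 bp from the nearest of them. Its central 600 bp held 3 GGAA and 1 ETS core, with 71.7% GC. Peaks of 381 and 570 bp lay 41807 and 32890 bp upstream and were nearest to HIF1A. Of the 3 downstream peaks, 1 was 56 bp from the TSS of the non-coding gene HIF1A-AS3 and 1 was at the promoter of SNAPC1, a subunit of the complex that activates small nuclear RNA promoters.

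EPAS1 (chr2:46520806-46613836, plus strand) had 4 peaks, and all lay within the gene and nearest to it. The widest, 3829 bp at chr2:46523453-46527281, covered the canonical TSS and 2 others, and it was wider than 99.01% of all peaks. It held 44 GGAA and 6 ETS cores over its whole length, and 3 GGAA and no ETS core in the central 600 bp. The other 3 peaks lay in intron 1, at 12417, 17974 and 35867 bp, and were 418, 1062 and 1226 bp wide. Each of these held 1 or 2 AP-1 sites over its length, while the promoter peak held none. HIF1A and EPAS1 differed in that the distal peaks of HIF1A were all outside the gene and those of EPAS1 all inside.

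Over each role, the ligands had 41 peaks, or 4.35 per 100 kb of window (Poisson interval 3.13 to 5.91). The receptors had 14 peaks, or 1.06 per 100 kb (0.581 to 1.78). The hypoxia factors had 10 peaks, or 1.83 per 100 kb (0.879 to 3.37), and the median of all protein-coding genes was 1.63 (quartiles 0.606 and 3.37). The intervals of ligands and receptors did not overlap, but 25 of the 41 ligand peaks were those of VEGFB. Without VEGFB the ligands had 16 peaks, or 2.17 per 100 kb (1.24 to 3.53), and that interval overlapped the one of the receptors. Among the receptors, FLT1 and KDR together had 3 peaks, or 0.467 per 100 kb (0.0964 to 1.37), and NRP1 and NRP2 had 11, or 1.63 (0.814 to 2.92). The neuropilins were at the rate of the median gene, and the interval of the kinases overlapped theirs. Overlap of these intervals, or its lack, is no test between roles or genes. The intervals cover the counting of peaks alone, and the genes are not replicates.

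Counting only the peaks nearest to the gene by canonical TSS narrowed the difference between roles. By this count the ligands had 12 of 41 peaks (29.3%, 17.6 to 44.5), the receptors 10 of 14 (71.4%, 45.4 to 88.3) and the hypoxia factors 7 of 10 (70.0%, 39.7 to 89.2). The rates became 1.27, 0.759 and 1.28 per 100 kb. No receptor window had a peak at the promoter of another coding gene, whereas 15 ligand peaks were at such promoters. No other coding TSS lay in the windows of VEGFC, FLT1, KDR, NRP1 and NRP2, and the other genes had from 1 (VEGFA and EPAS1) to 17 (VEGFB). The part of gene density in the window counts was not tested. Within the ligands the order of the counts was VEGFB, VEGFA, ANGPTL4 and VEGFC, and apart from VEGFB their Poisson intervals overlapped.

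**Figure D3:**
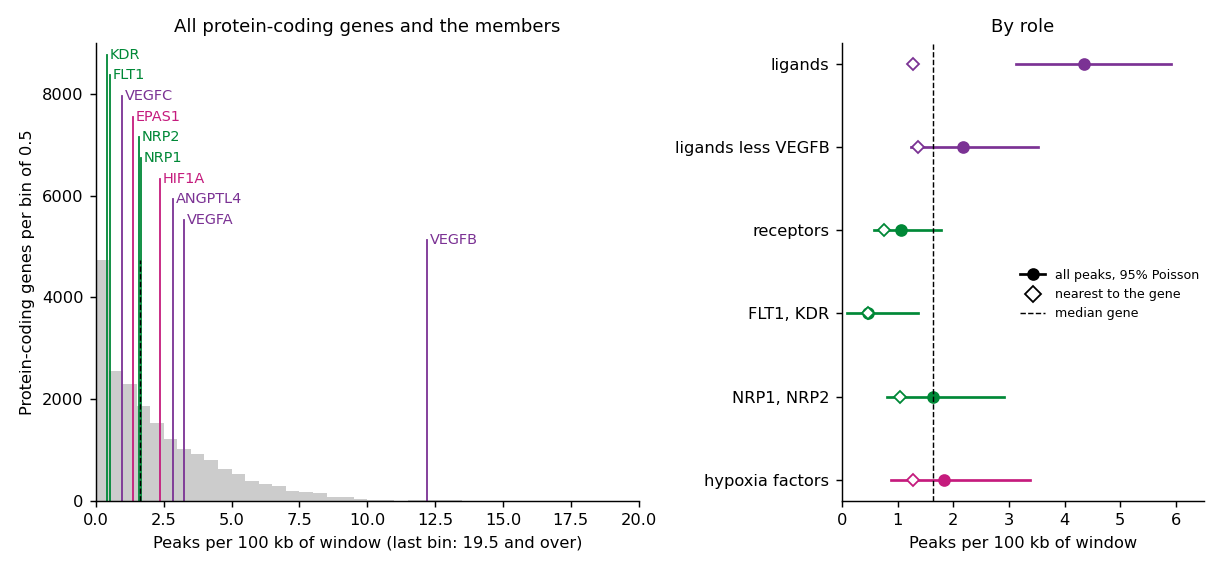
Left, the number of protein-coding genes by peaks per 100 kb of window (bins of 0.5, grey), with each of the 10 genes as a coloured line and the median as a dashed line. Right, peaks per 100 kb for each role with the 95% Poisson interval, and open diamonds for peaks nearest to the gene; the ligands fall from 4.35 to 2.17 without VEGFB and to 1.27 for nearest peaks.

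The 65 peaks had a median width of 1100 bp, against 969 bp for all peaks, and 10 of them were over 3 kb wide, which 2.65% of all peaks were. Of these 10, 6 were in the window of VEGFB and 1 each at VEGFA, NRP1, NRP2 and EPAS1. The 4 wide peaks outside the VEGFB window each covered 1 or more TSSs of the gene they were assigned to. In contrast, the peaks of FLT1 and KDR measured 318, 967 and 609 bp, none of them wider than the median. Peaks within 500 bp of any TSS had a median width of 1262 bp, and those over 1500 bp from one of 706 bp.

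**Figure D4:**
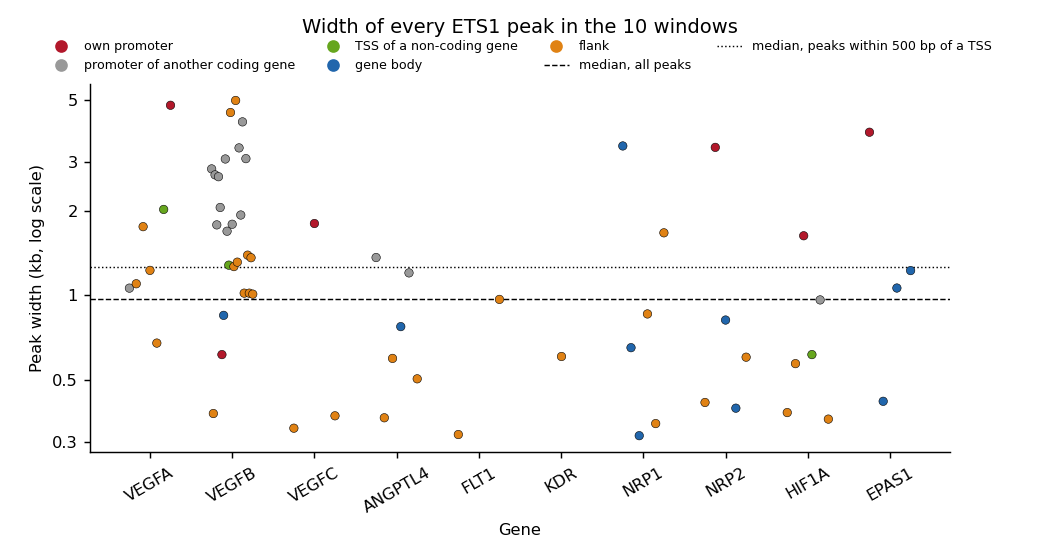
Each point is 1 of the 65 peaks, placed by gene and by width in kb on a log scale and coloured by class; the dashed line is the median of all peaks (969 bp) and the dotted line that of peaks within 500 bp of a TSS (1262 bp). The widest point of VEGFA, NRP1, NRP2 and EPAS1 is over 3 kb, and the points of FLT1 and KDR are at or under the dashed line.

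In sequence, the 65 peaks were like the list as a whole. An ETS core was present in the 600 bp around the midpoint in 52 peaks (80.0%, 68.7 to 87.9), against 79.2% of all nuclear peaks. The high-affinity form CCGGAA was present in 23.1% against 26.03%, ACGTG in 40.0% against 38.0% and the AP-1 motif in 30.8% against 25.2%. All motifs were read on both strands, and the ETS core and CCGGAA both contain GGAA and can overlap. Among the 32 member peaks over 1500 bp from any TSS, 46.9% had an AP-1 site, against 39.3% of all such peaks. None of the 6 own-promoter peaks had one (0 to 39.0%), where 9.46% of all peaks within 500 bp of a TSS did, a share inside that interval. The own-promoter peaks had a median GC content of 71.6% and an ETS core in 4 of 6 cases (30.0 to 90.3%). Of all peaks within 500 bp of a TSS, 71.3% had an ETS core.

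Related genes were counted in the same way from lists of the pathway. Among 15 further angiogenic ligands and receptors, 11 had a window peak, 8 a peak in the body and 4 a peak at an own promoter, with a median of 2 window peaks. A window peak was found for 88.2% of all coding genes. PDGFA, a platelet-derived growth factor, had most with 14, followed by SEMA3F, a neuropilin ligand, with 12. No peak was found in the windows of FLT4 (the receptor of VEGFC), VEGFD, SEMA3A and ANGPT1. The nearest peak was 153767 bp from the TSS of FLT4 and 109121 bp from that of VEGFD. Like KDR and FLT1, FLT4 had no peak in the gene body and none at an own promoter, where 54.1% of all genes had the former and 53.8% the latter. Other genes of the list lacked both as well, among them the ligands VEGFD, SEMA3A and ANGPT1, so this was not particular to receptors.

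Among all coding genes, 88.2% had a window peak, as did all 11 genes of oxygen sensing. Of these 10 had one at an own promoter, with a median of 4 in the window. EGLN3, a prolyl hydroxylase, had 10 peaks, 8 of them in the gene body, and VHL, the ubiquitin ligase subunit, had 8 and a peak 248 bp from its TSS. HIF3A had most with 14, none of them in the gene body, and was the only one without a promoter peak. Of the 15 hypoxia targets found, 13 had a promoter peak and all a window peak, with a median of 6. SLC2A1, the glucose transporter, had 16 peaks with 8 in the body, and NDRG1 had 15. The targets without a promoter peak were EPO and CA9. Against the 53.8% of all genes with a promoter peak, the shares of the oxygen-sensing genes and of the hypoxia targets were high and that of the angiogenic genes was low. The lists were small and were chosen by name, so that nothing particular to hypoxia follows from the counts.

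**Figure D5:**
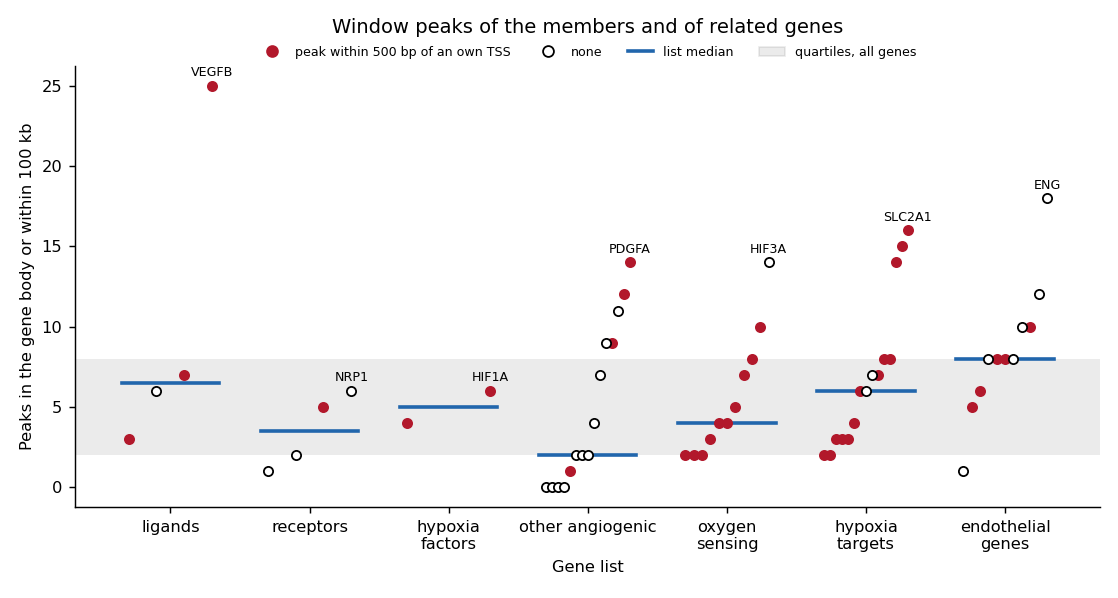
Each point is a gene, placed by list and by its number of peaks in the gene body or within 100 kb; filled points had a peak midpoint within 500 bp of an own TSS, the bar is the list median and the band the quartiles of all genes (2 and 8). Filled points make up 10 of 11 oxygen-sensing genes and 13 of 15 hypoxia targets, against 4 of 15 other angiogenic genes.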

How the data were processed

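The authors carried out ETS1 ChIP-Seq in SCC25 cells with 50 bp single-end reads. Per the labels and the methods, reads were mapped to hg19 with Bowtie 1.1.1, keeping reads with 1 locus, handled with SAMtools 1.3, and peaks were called with MACS2 against merged input and filtered by IDR over samples, pseudo-replicates and pooled reads. Reads in repeats are thereby lost, and peaks there cannot be seen. The authors deposited 1 list of positions, with no score, signal or value per sample and no depth, so no leave-out of a replicate and no test was possible. The 10 genes and the gene lists were chosen with earlier results of these data known.

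From the 26970 peaks, 9 mitochondrial ones were left out, and positions were written 1-based. A protein-coding gene counted once per name if GENCODE 44 on GRCh37 gave it a canonical transcript (19855 genes). DDIT4 and PECAM1 were not matched by this rule and are not analysed here. All 10 genes are described. A peak is given singly if it lay at a promoter or in the gene body, was the widest of its window, or carried a count. Of the other lists, the 2 genes with most peaks and those with none are named, and EGLN3, VHL, EPO and CA9, along with ROBO4, FLI1, VWF and EMCN, were named after their values were seen. The peaks and promoters whose sequences are shown were also picked in view of their values. The counting code was tested on simulated data. Python 3.11.15, pandas 2.3.3, scipy 1.17.1, pysam 0.24.0 and samtools 1.23.1 were used.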

Additional observations from a re-analysis of the deposited data

How the results depend on the processing

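With 1 pooled list, no replicate could be left out and no test threshold applied, so a value was compared with its own interval, or with 1.5 times a count. No paired analysis was possible because no result comes from a test and the list has no column per sample. Of 63 alternatives over 9 results, 45 stayed within those limits and 18 did not. The ligand rate exceeded that of the receptors in 8 of 8 settings that gave a rate for each role, the reported one included. It exceeded that of the hypoxia factors in 7 of 8, all but nearest peaks only (1.27 against 1.28). None of these settings leaves out VEGFB. Counting any peak that overlapped the window by 1 bp or more gave the same rates as the reported setting. By gene, VEGFC at 0.970 per 100 kb was below NRP1 at 1.67 and NRP2 at 1.58.

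The window total of 65 became 25 with a reach of 10 kb, 130 with 250 kb, 43 among the first 13485 peaks of the list (an order that no source explains) and 40 without VEGFB. The ligand rate of 4.35 per 100 kb became 3.08 among the first 13485 peaks, 2.76 without peaks at other coding promoters and 1.27 with nearest peaks only, and ranged from 2.17 (without VEGFB) to 6.01 (without VEGFC) when each ligand was left out. The receptor rate ranged from 0.835 to 1.30 when each receptor was left out and was 0.467 for FLT1 and KDR only. Without HIF1A or EPAS1 the hypoxia factor rate was 1.37 or 2.37. The share of peaks nearest to the gene, 44.6%, became 76.0% with 10 kb, 28.5% with 250 kb and 67.5% without VEGFB. The 6 genes with a promoter peak became 3 with canonical transcripts only, 3 among the first 13485 peaks and 1 (HIF1A) at 200 bp. They became 7 when any base of a peak counted and 8 at 1500 bp. The share of all coding genes was not computed under these settings, so the changes cannot be read as particular to the 10 genes. The share with an ETS core, 80.0%, became 46.2% in 200 bp and 95.4% over the whole peak. The counts without VEGFB, the nearest-only rates and the split of the receptors were chosen after seeing the data.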

Other observations

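Genes known from endothelial cells were counted beside the receptors, since FLT1 and KDR belong to that cell type. All 11 genes found had at least 1 window peak, as did 88.2% of all coding genes, with a median of 8, where the median of all genes was 4. ENG, a TGF-beta co-receptor, had most with 18, and EGFL7, a secreted endothelial protein, had 12. Both had many coding TSSs of other genes in their windows (12 and 7), and the nearest peak was 19764 and 10826 bp from their own TSS. A peak midpoint lay within 500 bp of an own TSS for 5 of the 11, against 53.8% of all coding genes, among them VWF (167 bp from the canonical TSS), FLI1 (51 bp), itself an ETS factor, and ROBO4 (466 bp). FLT1 and KDR had 2 and 1 window peaks, and EMCN, the lowest of the list, had 1 as well.

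At a reach of 250 kb, FLT1 had 5 peaks and KDR 3, where the median gene had 9. At 10 kb both had none, where 71.4% of all coding genes had at least 1. Among the first 13485 peaks of the list, FLT1 had none and KDR kept its 1.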
